A study of Rattus norvegicus with 10 samples.

Results

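Adenosine receptors, the enzymes that make and clear extracellular adenosine, and receptors for ATP and ADP were followed in the cerebral cortex of rats given electroacupuncture (EA) and of control rats. The 10 genes were chosen by symbol from a deposited table of 32623 genes, each has 1 row there, and all 10 were among the 15169 genes that passed a filter on low values (0.5 FPKM or more in 5 or more of the 10 libraries). FPKM counts fragments relative to transcript length and to the size of the library, so it is per length and lets the levels of different genes be set side by side. The animals were adult male Sprague-Dawley rats. The EA group had needles at Baihui and Shuigou, on the crown and below the nose, and 3 mA of current at 2/100 Hz for 40 min (n = 5 libraries). The control group was bound for the same 40 min, and no needle or current is described for it (n = 5 libraries). A difference between the groups therefore holds needling and current together. All rats were anesthetized and perfused with saline before the cortex was taken. The study asked what EA does to gene expression in cortex at a setting its authors use to open the blood-brain barrier. Separate rats for the separate libraries are implied by the numbering and not stated outright, so p-values measure the spread between these libraries.

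Extracellular ATP is cut to ADP and AMP by ectonucleoside triphosphate diphosphohydrolases such as Entpd1 and Entpd2, and AMP is cut to adenosine by the ecto-5'-nucleotidase Nt5e. Adenosine acts on G protein-coupled receptors. Adora1 couples to inhibitory G proteins and dampens transmitter release, while Adora2a and Adora2b couple to stimulatory G proteins and raise cAMP. Adenosine taken up by cells is phosphorylated to AMP by adenosine kinase (Adk), which in the adult brain is found mainly in astrocytes. ATP itself opens the ion channels P2rx4 and P2rx7, and ADP acts on the G protein-coupled receptor P2ry1. In mice, signalling through adenosine receptors on brain endothelium is known to alter the permeability of the blood-brain barrier.

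None of the 10 genes was called different between EA and control cortex. The call needed an adjusted p under 0.05 (Benjamini-Hochberg over the 15169 genes) and a fold change above 1.2 in edgeR's quasi-likelihood test on the deposited counts, and 0.0198% of all genes tested met it. In simulated data this call found 1 of 50 genes changed 1.2-fold and 33 of 50 changed 1.5-fold, so a small change would mostly be missed. Those data held 50 changed genes at each of 4 folds, and far more genes were called than the 3 called here. The adjusted p was then easier to pass, so these shares may overstate what the call finds in the real data. DESeq2 also called 0 of the 10, beside 1.11% of all genes, and limma on log2(FPKM + 0.1) called 0 of the 10, beside 0.0132%. At an unadjusted p under 0.05 edgeR gave 1 of the 10 (P2rx4, lower in EA), or 10%, where 14.2% of all genes tested passed that threshold and 7.4% passed it with a lower value in EA. DESeq2 likewise gave 1, P2rx4, beside 14.1% of all genes (7.33% lower in EA). With limma 4 of the 10 passed it (Adora1, Adora2a, Entpd2 and P2rx4, all lower in EA), beside 13.9% of all genes (9.58% lower in EA). On that FPKM scale the median log2 fold change of all genes was -0.026. The exact permutation tests of single genes below use the same scale. In edgeR the log2 fold change of EA over control was under 0 in 8 of the 10 genes, where 50.5% of all genes were under 0. Its median over the 10 was -0.15, where all genes had -0.0020. These shares describe a short list of genes chosen by name. In no gene of the 10 did the FPKM values of the groups stand wholly apart, beside 3.11% of all genes.

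**Figure D1:**
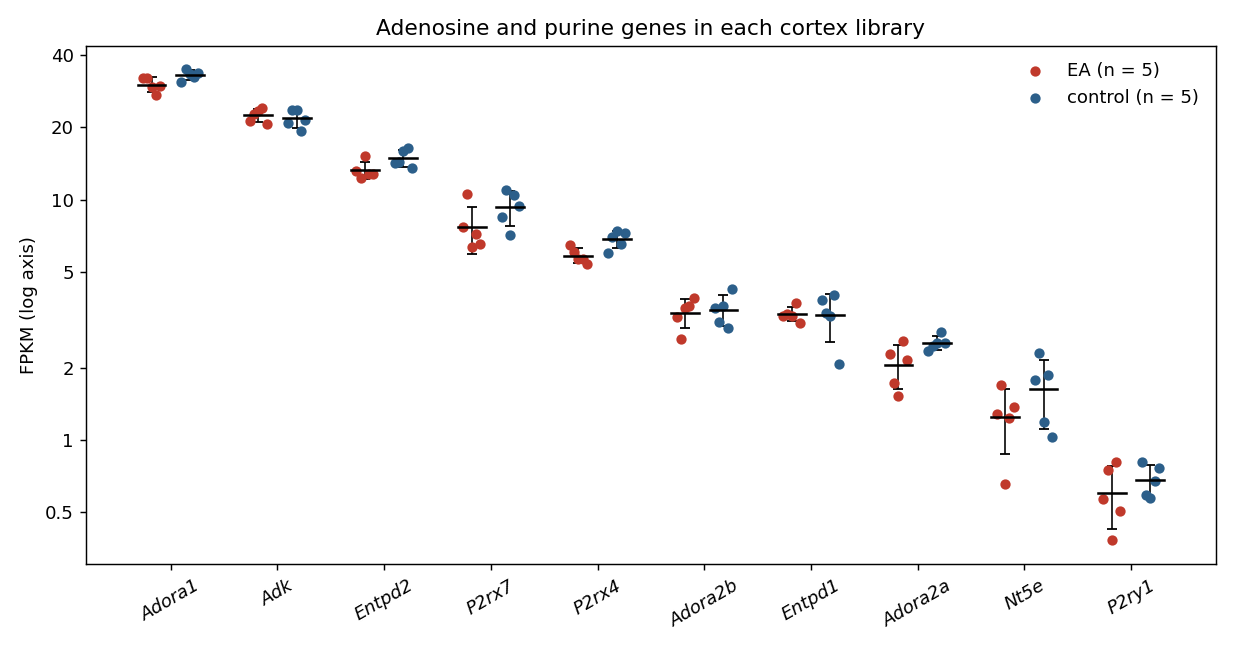
FPKM of the 10 genes (log axis) in each of the 5 EA and 5 control libraries, with the mean (bar) and SD (whiskers) of each group, ordered by mean level. Adora1 lies highest and P2ry1 lowest, and the points of the EA and control groups overlap in all 10 genes.

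Deposited counts totalled between 47843590 and 60941939 in EA libraries and between 55223193 and 61707722 in control libraries. Structural RNAs, by the transcript types in the table, summed to 1217 to 2440 FPKM in EA libraries and 1074 to 1170 in control libraries, with EA 2 (1986) and EA 5 (2440) highest. The groups did not overlap in this sum. Cortical neuron markers were present, among them the vesicular glutamate transporter Slc17a7 at a mean of 325 FPKM over all libraries. Markers of the choroid plexus, which lies outside the cortex, summed to 0.601 to 2.47 FPKM in EA and 1.02 to 3.06 in control, and Folr1, Kl and Clic6 stayed under 0.5 FPKM everywhere. The 4 markers of oligodendrocyte precursors summed to 38.2 to 45.5 FPKM in EA and 45.6 to 51.2 in control (exact permutation p = 0.00794, the smallest that all assignments of 5 and 5 libraries allow, adjusted p = 0.0873 over 11 marker lists). Oligodendrocyte markers summed to 889 to 1148 FPKM in EA and 1004 to 1448 in control (exact p = 0.0476, adjusted p = 0.175). Of endothelial markers, 7 of 8 were in the table and summed to 56.2 to 62.5 FPKM in EA and 59.7 to 78.2 in control (exact p = 0.0397, adjusted p = 0.175). Among them the claudin Cldn5 was listed at 0 in every EA library and at 0 to 1.25 FPKM in control. Its control mean was 0.309 FPKM, most of it from the highest control library, while Flt1 of the same list averaged 19.5 over all libraries. With a mean of 0.154 FPKM, Cldn5 did not pass the filter on low values and was not tested. Blood cell markers, 5 of 6 in the table and mostly hemoglobins, summed to 6.29 to 16.8 FPKM in EA and 7.83 to 43.9 in control (exact p = 0.111, adjusted p = 0.306). Their 3 genes tested were all lower in EA at an unadjusted p under 0.05 in edgeR, beside 7.4% of all genes, with a median log2 fold change of -1.05. The part of these cell types in the differences of the 10 genes was not tested. In bulk tissue, fewer cells of a type and less RNA per cell cannot be told apart.

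The 10 genes spanned a wide range of levels. Over all 10 libraries mean FPKM was 31.6 for Adora1, 22.1 for Adk, 14.1 for Entpd2, 8.49 for P2rx7 and 6.35 for P2rx4. It was 3.44 for Adora2b, 3.33 for Entpd1, 2.30 for Adora2a, 1.44 for Nt5e and 0.642 for P2ry1. Adora1, Adk and Entpd2 were each clear of the next gene, in that every library of the higher gene exceeded every library of the lower, and so was P2rx4 of Adora2b. Adora2b and Entpd1 could not be ordered, since Adora2b was the higher in 4 of the 10 libraries. P2rx7 exceeded P2rx4 within 9 of the 10 libraries, and Entpd1 exceeded Adora2a within 9, although their ranges overlapped. Adora2a exceeded Nt5e, and Nt5e exceeded P2ry1, within all 10 libraries, again with overlapping ranges. The least even gene was Nt5e, whose coefficient of variation over the 10 libraries was 32.9%, and the most even were Adk (7.27%) and Adora1 (7.31%). Adora1 rested on 4255 to 6404 counts a library, whereas P2ry1 rested on 61 to 159 and Nt5e on 103 to 457.

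Among the adenosine receptors, Adora1 was the most abundant. Adora1 (ENSRNOG00000003442, Rnor_6.0 chr13:51042248-51076852, minus strand) had 32.2, 32.2, 29.4, 27.2 and 29.8 FPKM in EA libraries 1 to 5, against 30.8, 34.8, 33.5, 32.5 and 33.6 FPKM in control libraries 1 to 5. The EA libraries averaged 30.2 ± 2.11 FPKM and the control libraries 33.0 ± 1.53 (SD, n = 5 each). Controls 2, 3, 4 and 5 lay above every EA library, while control 1 lay inside the EA range. The log2 fold change of Adora1 was -0.11 (SE 0.05, 95% interval -0.23 to 0.01, edgeR adjusted p = 0.397, unadjusted p = 0.0716). The exact two-sided permutation test over libraries gave an unadjusted p of 0.0476 for Adora1, 1 of 10 such tests made. Without EA 4, its lowest library, the log2 fold change was -0.068 (adjusted p = 0.554).

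Adora2a, in the forebrain best known from striatal projection neurons, was far scarcer in cortex. Adora2a (ENSRNOG00000001302, chr20:14265252-14282873, minus strand) had 2.28, 1.72, 1.53, 2.58 and 2.15 FPKM in EA libraries 1 to 5, against 2.34, 2.46, 2.53, 2.83 and 2.54 FPKM in control libraries 1 to 5. The control libraries were tightly grouped, and 4 of the 5 EA libraries lay below the lowest of them, with EA 4 inside the control range. The log2 fold change of Adora2a was -0.28 (SE 0.13, 95% interval -0.57 to 0.01, edgeR adjusted p = 0.368, unadjusted p = 0.0572), and its exact permutation p was 0.0476. Markers of striatal projection neurons summed to 127 to 150 FPKM in EA and 132 to 144 in control (exact p = 0.762). Ppp1r1b (mean 74.4 FPKM) and Penk (27.7) made up most of that sum, while the dopamine receptors Drd1 (1.51) and Drd2 (1.19) added little to it. Over the 10 libraries Adora2a and that sum gave Pearson r = 0.02 (permutation p = 0.965, adjusted p = 0.990) and Spearman rho = -0.09 (permutation p = 0.810, adjusted p = 0.952, 120 relations), and r = -0.18 without EA 2 and EA 3. The ratio of Adora1 to Adora2a was 15.3 ± 3.65 in EA and 13.1 ± 0.964 in control (SD, n = 5 each, exact p = 0.278, adjusted p = 0.417 over 3 ratios).

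Adora2b, the low-affinity receptor, overlapped widely between the groups. Adora2b (ENSRNOG00000002922, chr10:48569555-48586365, plus strand) had 3.26, 2.64, 3.54, 3.61 and 3.91 FPKM in EA libraries 1 to 5, against 3.53, 3.10, 3.61, 2.93 and 4.27 FPKM in control libraries 1 to 5. The lowest library was EA 2 and the highest was control 5. Adora2b stood at a log2 fold change of -0.024 (SE 0.14, 95% interval -0.33 to 0.28, edgeR adjusted p = 0.963), and its sign turned without EA 2, without control 5, or without EA 2 and EA 5. Changes of up to 1.2-fold in either direction lie within the interval.

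**Figure D2:**
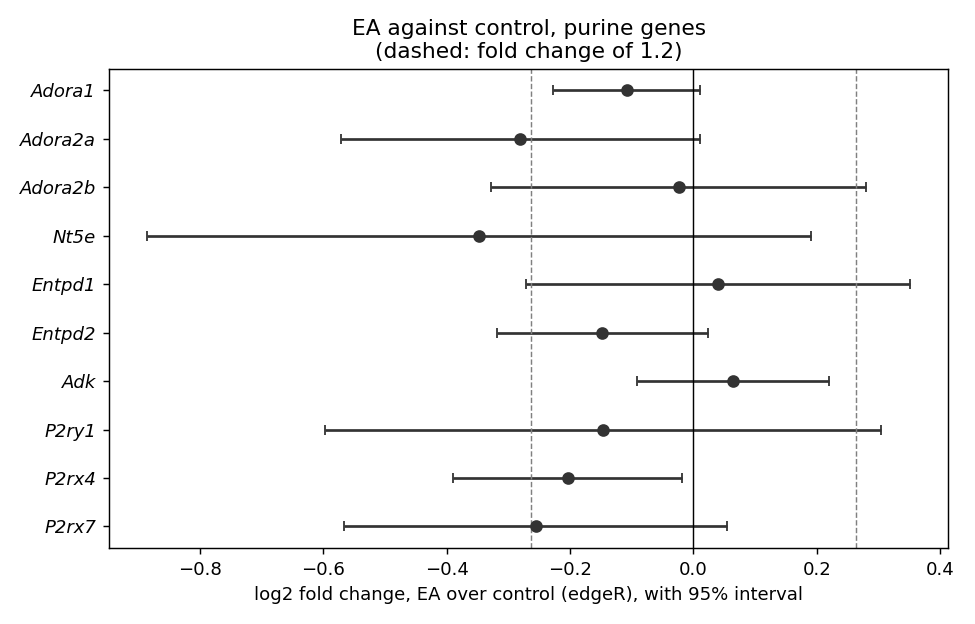
Log2 fold change of EA over control (edgeR, points) with its 95% interval (bars) for each of the 10 genes, with dashed lines at a fold change of 1.2. The interval of P2rx4 alone excludes 0, before adjustment over the 15169 genes tested.

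Nt5e, which makes adenosine from AMP at the cell surface, had the widest interval of the 10 genes. Nt5e (ENSRNOG00000011071, chr8:95968652-96012696, plus strand) had 1.28, 1.70, 0.657, 1.24 and 1.37 FPKM in EA libraries 1 to 5, against 1.78, 2.31, 1.19, 1.86 and 1.03 FPKM in control libraries 1 to 5. EA 3 was lowest, and controls 1, 2 and 4 lay above all EA libraries, but controls 3 and 5 each lay below 4 of them. For Nt5e the log2 fold change was -0.35 (SE 0.25, 95% interval -0.89 to 0.19, edgeR adjusted p = 0.564). It was -0.19 without control 2, -0.20 without EA 3 and -0.58 without EA 2 and EA 5. With the striatal projection neuron sum Nt5e gave the largest Pearson r of the 120 relations, 0.77 (permutation p = 0.0105, adjusted p = 0.697). Spearman rho was 0.78 (permutation p = 0.0103, adjusted p = 0.412). Within EA that r was 0.93, within control 0.88, and after removal of the group means 0.89. The part of these markers in the Nt5e difference was not tested. The ratio of Adk to Nt5e, the enzyme that removes adenosine over the one that makes it, was between 13.4 and 35.5 in EA and between 10.3 and 20.9 in control (n = 5 each, exact p = 0.238, adjusted p = 0.417).

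Of the ectonucleotidases upstream of Nt5e, Entpd2 was the more abundant. Entpd2 (ENSRNOG00000013102, chr3:2617805-2623445, plus strand), which cuts ATP to ADP, had 13.2, 12.4, 15.2, 12.8 and 12.8 FPKM in EA libraries 1 to 5, against 14.2, 14.4, 16.0, 16.4 and 13.6 FPKM in control libraries 1 to 5. Every EA library but EA 3 lay below every control library. The log2 fold change of Entpd2 was -0.15 (SE 0.08, 95% interval -0.32 to 0.02, edgeR adjusted p = 0.423, unadjusted p = 0.0845), and its exact permutation p was 0.0635. Without EA 3 its log2 fold change was -0.21 (adjusted p = 0.188), and without EA 2 and EA 5 it was -0.087 (adjusted p = 0.804). With structural RNA, highest in EA 2 and EA 5, Entpd2 gave Pearson r = -0.67 (permutation p = 0.0299, adjusted p = 0.697) and Spearman rho = -0.76 (permutation p = 0.0148, adjusted p = 0.443, 120 relations), and r = -0.61 without those libraries. Within EA r was -0.54, within control -0.61, and after removal of the group means -0.43. The part of structural RNA in the Entpd2 difference was not tested.

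Entpd1, which cuts ATP and ADP and is known from microglia and endothelium, overlapped between the groups. Entpd1 (ENSRNOG00000014574, chr1:259739955-259819494, plus strand) had 3.29, 3.36, 3.29, 3.72 and 3.07 FPKM in EA libraries 1 to 5, against 3.81, 3.39, 3.27, 4.01 and 2.08 FPKM in control libraries 1 to 5. The EA libraries fell within the control range, which control 5 widened downwards. Entpd1 stood at a log2 fold change of 0.040 (SE 0.14, 95% interval -0.27 to 0.35, edgeR adjusted p = 0.933) and at -0.088 without control 5. Changes of 1.2-fold in either direction lie within the Entpd1 interval. Microglial markers summed to 180 to 231 FPKM in EA and 206 to 218 in control (exact p = 0.683).

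Adk, the enzyme of adenosine clearance on the list, was intermixed between the groups. Adk (ENSRNOG00000012325, chr15:3033495-3435888, minus strand) overlaps 2 other annotated genes. It had 21.3, 22.7, 23.3, 24.1 and 20.6 FPKM in EA libraries 1 to 5, against 20.8, 23.7, 23.6, 19.3 and 21.5 FPKM in control libraries 1 to 5. The highest library was EA 4 and the lowest control 4. With EA over control, Adk had a log2 fold change of 0.064 (SE 0.07, 95% interval -0.09 to 0.22, edgeR adjusted p = 0.732), so its interval stayed inside a 1.2-fold change in both directions. With 1 library left out it ranged from 0.021 (without control 4) to 0.10 (without EA 5). Astrocyte markers summed to 1237 to 1756 FPKM in EA and 1425 to 1664 in control (exact p = 0.516). Aldoc was the largest part of that sum, at a mean of 733 FPKM in EA and 829 in control. Its members did not move together, with Aqp4 at 80.7 in EA and 51.5 in control. Over the libraries Aqp4 ranged from 17.3 to 157 FPKM and Slc1a2 from 118 to 393.

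Among the receptors for ATP and ADP, P2rx4 and P2rx7 are neighbours on the minus strand of chromosome 12, 27.9 kb apart with 0 genes between them. Both form ATP-gated cation channels, P2rx7 opening only at high ATP. Promoters are shown for these neighbours and for Adora1, whose level followed that of P2rx4 across the libraries. The sequences are from RefSeq (assembly GRCr8, a later build than that of the gene positions above), run 5′ to 3′ on the gene's strand, and cover 250 bases before and 50 bases after each gene's start. Capitals mark matches to a GC box (GGGCGG) or to the core of a cAMP response element (TGACG), searched on both strands.
Adora1 (chr13:48246782-48247081, minus strand): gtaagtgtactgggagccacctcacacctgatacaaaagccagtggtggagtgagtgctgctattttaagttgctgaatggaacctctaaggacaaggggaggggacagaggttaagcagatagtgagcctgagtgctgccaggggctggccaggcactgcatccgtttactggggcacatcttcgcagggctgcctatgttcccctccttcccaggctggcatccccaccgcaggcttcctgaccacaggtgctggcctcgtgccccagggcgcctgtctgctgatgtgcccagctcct
P2rx4 (chr12:39523040-39523339, minus strand): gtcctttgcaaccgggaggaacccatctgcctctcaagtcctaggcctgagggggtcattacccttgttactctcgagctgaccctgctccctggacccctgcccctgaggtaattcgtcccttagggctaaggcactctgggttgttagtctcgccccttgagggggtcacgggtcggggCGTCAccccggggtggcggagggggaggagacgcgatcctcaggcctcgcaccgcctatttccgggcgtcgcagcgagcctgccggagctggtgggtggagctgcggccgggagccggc
P2rx7 (chr12:39594873-39595172, minus strand): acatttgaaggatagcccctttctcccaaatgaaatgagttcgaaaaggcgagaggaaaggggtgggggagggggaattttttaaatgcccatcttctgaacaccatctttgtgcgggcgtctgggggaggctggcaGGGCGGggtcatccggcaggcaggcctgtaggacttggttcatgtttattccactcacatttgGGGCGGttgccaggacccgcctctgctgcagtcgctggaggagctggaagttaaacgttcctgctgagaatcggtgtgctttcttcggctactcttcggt

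The P2rx4 promoter held 1 cAMP response element core, read as its reverse complement CGTCA, and 0 GC boxes. The P2rx7 promoter held 2 GC boxes and 0 such cores, and the Adora1 promoter held neither. Of 33469 rat promoters of the same length, 33.1% held a GC box and 21.2% the core, and the motif matches do not overlap. No TATA box (TATAAA, in 14.2% of promoters) was found in any of these 3 windows. CpG dinucleotides numbered 5 in the Adora1 promoter, 21 in that of P2rx4 and 13 in that of P2rx7, with a median of 7 over all promoters. Of the 10 genes, 9 had a promoter in the reference table, Adora2a being the other.

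P2rx4 (ENSRNOG00000001300, chr12:39308025-39325673) was the gene of the list with the lowest p. It had 6.50, 6.04, 5.67, 5.66 and 5.41 FPKM in EA libraries 1 to 5, against 6.01, 7.02, 7.43, 6.55 and 7.27 FPKM in control libraries 1 to 5. Controls 2 to 5 lay above all EA libraries, and control 1 lay below EA 1 and EA 2. The EA libraries averaged 5.86 ± 0.427 FPKM and the control libraries 6.85 ± 0.578 (SD, n = 5 each). The log2 fold change of P2rx4 was -0.20 (SE 0.09, 95% interval -0.39 to -0.02, edgeR adjusted p = 0.311, unadjusted p = 0.0341), and its exact permutation p was 0.0238. Without EA 2 and EA 5, the libraries richest in structural RNA, it was -0.17 (unadjusted p = 0.126, adjusted p = 0.633).

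Across the 10 libraries P2rx4 was lower where structural RNA was higher, with Pearson r = -0.67 (permutation p = 0.0292, adjusted p = 0.697) and Spearman rho = -0.84 (permutation p = 0.00398, adjusted p = 0.412, both over 120 relations). Without EA 5 and EA 2 r was -0.82, within the EA libraries it was -0.48, and within the control libraries -0.48. After removal of the group means it was -0.35. With the oligodendrocyte precursor sum P2rx4 gave r = 0.60 (permutation p = 0.0727, adjusted p = 0.697) and rho = 0.67 (permutation p = 0.0392, adjusted p = 0.587), and r = 0.78 without EA 1 and control 5. Within the groups the sign differed, at r = -0.73 in EA and r = 0.94 in control. The part of either measure in the P2rx4 difference was not tested. None of the 120 relations passed an adjusted p of 0.05.

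P2rx7 (ENSRNOG00000001296, chr12:39353613-39396042) varied more than its neighbour. It had 7.69, 10.6, 6.35, 7.20 and 6.52 FPKM in EA libraries 1 to 5, against 8.49, 11.03, 7.16, 10.5 and 9.42 FPKM in control libraries 1 to 5. EA 2 stood above the other EA libraries, and all control libraries but control 2 lay within the EA range that it widened. For P2rx7 the log2 fold change was -0.26 (SE 0.14, 95% interval -0.57 to 0.06, edgeR adjusted p = 0.448, unadjusted p = 0.0985), and its exact permutation p was 0.151. Without EA 2 it was -0.40 (unadjusted p = 0.00397, adjusted p = 0.217). The ratio of P2rx7 to P2rx4 was 1.31 ± 0.253 in EA and 1.37 ± 0.258 in control (SD, n = 5 each, exact p = 0.714, adjusted p = 0.714).

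P2ry1, the ADP receptor, was near the limit of the filter. P2ry1 (ENSRNOG00000014232, chr2:151314818-151320319, plus strand) had 0.568, 0.747, 0.382, 0.812 and 0.505 FPKM in EA libraries 1 to 5, against 0.809, 0.589, 0.574, 0.676 and 0.763 FPKM in control libraries 1 to 5. EA 4 was the highest library and EA 3 the lowest, so the EA group spanned the whole control range. The groups differed in P2ry1 by a log2 fold change of -0.15 (SE 0.21, 95% interval -0.60 to 0.30, edgeR adjusted p = 0.796). Changes of 1.2-fold in either direction lie within that interval. With 1 library left out P2ry1 ranged from -0.27 (without EA 4) to -0.040 (without EA 3).

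**Figure D3:**
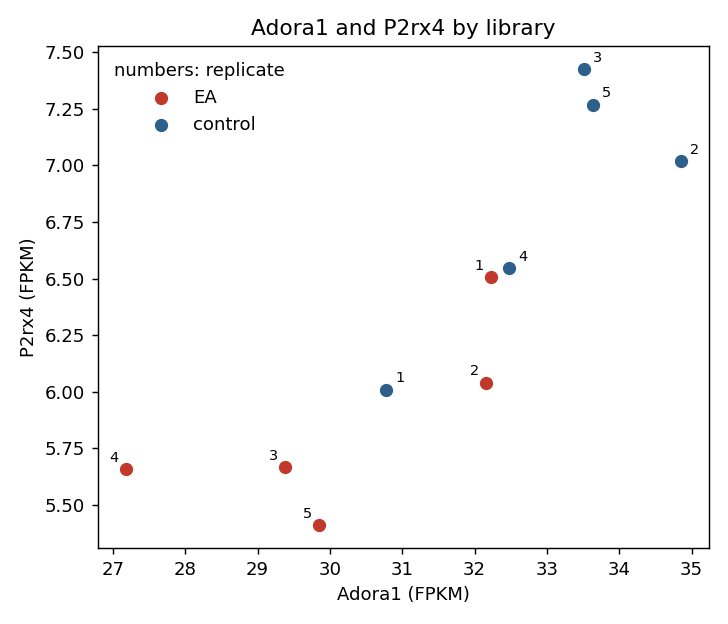
FPKM of P2rx4 against FPKM of Adora1 in each of the 5 EA and 5 control libraries, with replicate numbers beside the points. Libraries high in Adora1 tended to be high in P2rx4 (Pearson r = 0.85), within both groups as well as across them.

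Adora1 and P2rx4 tended to be high and low in the same libraries, although their extremes differed. Adora1 was lowest in EA 4 and highest in control 2, and P2rx4 was lowest in EA 5 and highest in control 3. Over the 10 libraries their FPKM values on the log scale gave Pearson r = 0.85 (permutation p = 0.00133, adjusted p = 0.0598) and Spearman rho = 0.92 (permutation p = 0.00053, adjusted p = 0.0238), adjusted over the 45 relations among the 10 genes, which were computed after the values had been seen. Without EA 4 and EA 3, the libraries farthest from the median of Adora1, r was 0.90. Within the EA libraries r was 0.70, within the control libraries it was 0.84, and after removal of the group means it was 0.73. Adora1 and structural RNA gave r = -0.38 (permutation p = 0.278, adjusted p = 0.881) and rho = -0.81 (permutation p = 0.00741, adjusted p = 0.412). Without EA 5 and EA 2 that r was -0.91. Within EA it was 0.18, within control -0.69, and after removal of the group means 0.10. P2rx4 ran closer still to genes outside the list, such as Rogdi (r = 0.96). The part of structural RNA in the relation of Adora1 and P2rx4 was not tested. By Pearson r the next relation was that of Nt5e and P2rx7, with r = 0.72 (permutation p = 0.0149, adjusted p = 0.336) and rho = 0.70 (permutation p = 0.0306, adjusted p = 0.355), and r = 0.49 without EA 3 and control 2. By rank it was that of Adora2b and Entpd1, with rho = -0.71 (permutation p = 0.0264, adjusted p = 0.355) and r = -0.61 (permutation p = 0.0640, adjusted p = 0.641), and r = -0.54 without EA 2 and control 5. After removal of the group means, Nt5e gave r = 0.77 with the neuron marker sum and -0.79 with the astrocyte marker sum. P2rx7 gave 0.75 and -0.81 with the same sums. The part of these sums in the relation of Nt5e and P2rx7 was not tested. EA 3 was the lowest library for 4 of the 10 genes, and control 2 and control 4 were each the highest for 3.

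Of the other genes of the purine pathway, 67 of 68 listed symbols were in the table and 55 were tested. None was called by edgeR, DESeq2 or limma. At an unadjusted p under 0.05 edgeR gave 1 higher and 7 lower in EA, 14.5% of the 55 beside 14.2% of all genes tested (6.81% higher and 7.4% lower). DESeq2 also gave 1 higher and 7 lower, beside 7.33% of all genes lower. Limma gave 1 higher and 9 lower, beside 9.58% of all genes lower. Their median log2 fold change was -0.01. In 5 of the 55 (9.09%, beside 3.11% of all genes) the groups did not overlap in FPKM, 1 with all EA libraries above (0.85% of all genes) and 4 with all below (2.25% of all genes).

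**Figure D4:**
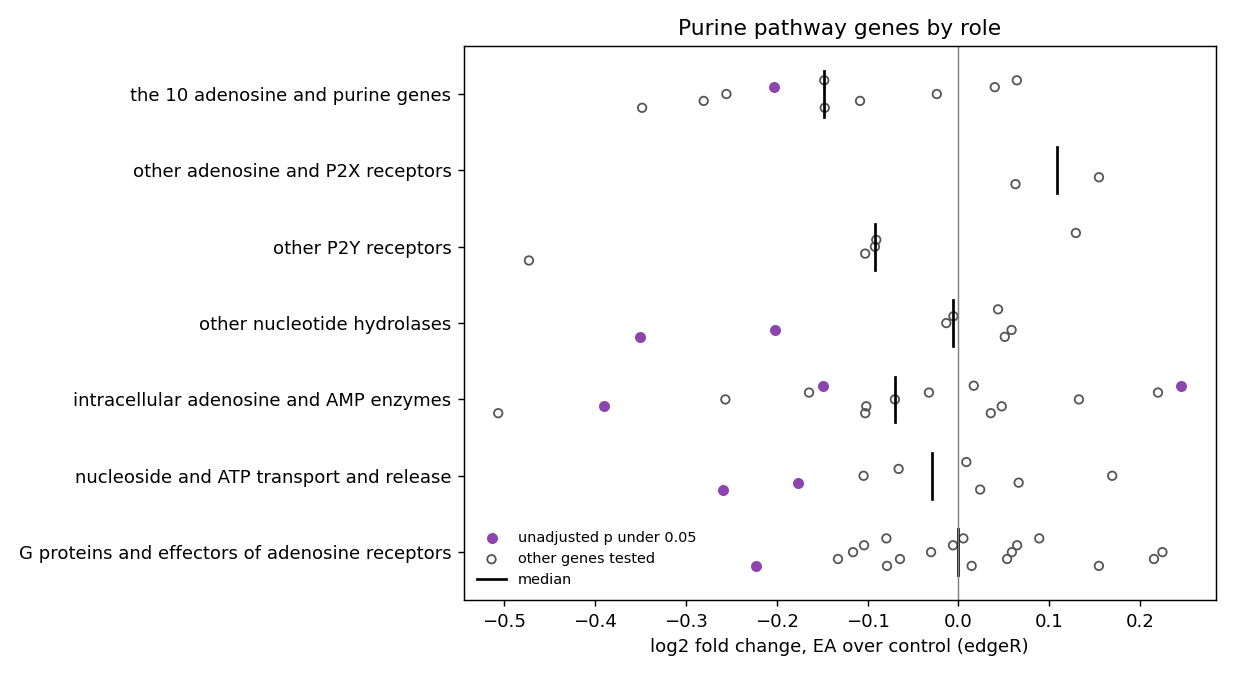
Log2 fold change of EA over control (edgeR) for the 10 genes and for the 55 other purine pathway genes tested, by role, with filled points at an unadjusted p under 0.05 and black bars at the medians. Of the filled points among the 55 others, 7 lie below 0 and 1 above.

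The intracellular enzymes held both directions. Nt5c3a, a cytosolic nucleotidase, had 14.4 to 15.9 FPKM in EA and 12.5 to 13.8 in control, with a log2 fold change of 0.25 (SE 0.05, edgeR adjusted p = 0.162). In DESeq2 its adjusted p was 0.0152 at a log2 fold change of 0.25, so there Nt5c3a passed the p threshold and missed the call on the fold of 1.2. Pnp, which splits inosine and guanosine, had 71.7 to 79.6 FPKM in EA and 81.8 to 88.8 in control, at -0.15 (adjusted p = 0.192). Xdh, which makes uric acid, stood at -0.39 (edgeR adjusted p = 0.269). Adenosine deaminase (Ada), the other route of adenosine clearance, stood at -0.51 but with a wide error (SE 0.25, edgeR adjusted p = 0.380). In this list 1 of 15 genes tested was higher and 2 were lower in EA at an unadjusted p under 0.05. Of all genes 6.81% were higher and 7.4% lower at that threshold.

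In the list of transport and release, 2 of 8 genes were lower in EA at an unadjusted p under 0.05, beside 7.4% of all genes. Panx2, a pannexin, had 52.5 to 58.0 FPKM in EA and 58.6 to 67.6 in control, at a log2 fold change of -0.18 (edgeR adjusted p = 0.194). Slc29a3, a nucleoside transporter of intracellular membranes, had 3.28 to 3.84 FPKM in EA and 3.90 to 5.13 in control, at -0.26 (adjusted p = 0.234). Panx1, a channel through which cells release ATP, stood at 0.17 (edgeR adjusted p = 0.437).

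Among the other nucleotide hydrolases tested, 2 of 7 were lower in EA at an unadjusted p under 0.05, beside 7.4% of all genes. Enpp1, which cuts ATP to AMP and pyrophosphate, had 1.13 to 1.45 FPKM in EA and 1.52 to 1.91 in control, at a log2 fold change of -0.35 (edgeR adjusted p = 0.217). Alpl, a phosphatase that can also make adenosine from AMP, stood at -0.20 (edgeR adjusted p = 0.346). Of the G proteins and effectors 1 of 18 was past that unadjusted threshold, beside 14.2% of all genes in either direction. It was the adenylate cyclase Adcy1, at -0.22 (edgeR adjusted p = 0.234). Of the 12 other adenosine, P2X and P2Y receptors 7 were tested, and none was past it. P2rx1, P2rx2, P2rx3, P2rx5 and P2ry2 did not pass the filter on low values. The microglial ADP receptor P2ry12 stood at -0.09 (edgeR adjusted p = 0.558), P2ry4 at -0.47 (adjusted p = 0.591), P2rx6 at 0.15 (adjusted p = 0.764) and Adora3 at 0.06 (adjusted p = 0.950).

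The genes whose log2(FPKM + 0.1) ran most like that of each member were taken from the 15168 other genes tested, over the same 10 libraries, as a description with no test. They are given for the 8 genes whose highest library exceeded 1.3 times the lowest. P2rx4 ran most like Rogdi (Pearson r = 0.96), Miga2 (0.95) and the serotonin receptor Htr6 (0.95). P2rx7 ran most like Dnajb13 (r = 0.96), Pofut1 (0.94) and Zfyve28 (0.93), and P2ry1 most like Mpc1 (r = 0.95), Pxmp4 (0.92) and Agpat5 (0.91). Adora2a ran most like AC103024 (r = 0.99), the interleukin-10 receptor gene Il10ra (0.95) and Txnip (0.94). Adora2b ran most like G0s2 (r = 0.93), Zfyve16 (0.89) and Pik3ap1 (0.88). Entpd2 ran most like Slc35c2 (r = 0.96), AABR07015006 (0.95) and the GABA transporter Slc6a11 (0.92). Nt5e ran most like Kif13b, Tdrkh and Papolg (r = 0.90 to 0.91), and Entpd1 most like LOC100911951 (r = 0.93), AABR07066020 (0.93) and LOC100910284 (0.92). By rank the Entpd1 likeness was weaker, at Spearman rho = 0.85 for LOC100911951, 0.58 for AABR07066020 and 0.39 for LOC100910284. For Adora2a rho was 0.95 for AC103024, and lower for Il10ra (0.77) and Txnip (0.76).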

How the data were processed

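Sequenced was poly(A) RNA from the cerebral cortex, with 5 EA and 5 control libraries. The study's methods state alignment with HISAT2, assembly with StringTie and a merge of all samples' transcripts with gffcompare. HISAT2 2.0, Bowtie 0.12.2 and StringTie 1.3.0 stand in the submitters' processing notes, with Rnor_6.0 as the build. FPKM was estimated by the authors in ballgown before it was deposited. The counts beside it were deposited as whole numbers, with no statement in the sources used here of how they came from the assembly. An FPKM of 0.0001 in the table was read as 0.

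Genes at 0.5 FPKM or more in 5 or more libraries entered the quasi-likelihood F test of edgeR 4.0.16, scaled by TMM, in R 4.3.3, with Benjamini-Hochberg adjustment over 15169 genes. The study used DESeq2 with a q under 0.05 and a fold change of 1.2, and the same thresholds are used here. The standard error is the log2 fold change divided by the root of F. Single values were compared by exact two-sided permutation over all assignments of the libraries on log2(FPKM + 0.1), and relations with 100000 permutations. DESeq2 1.42.0, limma 3.58.1, other filters and scalings, the replicate number as a block and left-out libraries were the alternatives, 19 in all. The edgeR script was tested on simulated data with 50 genes changed at each of 4 folds. It recovered 1 at 1.2-fold, 33 at 1.5-fold, 38 at 2-fold and 49 at 4-fold, with 6 false calls among the other genes.

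The 10 genes, the pathway and marker lists and the rules were chosen with earlier results of these data known. The text names all 10 genes and, of the other pathway genes, those at an unadjusted p under 0.05 or else the 2 with the lowest p of each list. Ada, Panx1, Slc17a7 and Cldn5 were named after their values were seen. Promoter sequences are from RefSeq, and Python 3.11.15 with numpy 2.4.6, pandas 2.3.3, scipy 1.17.1 and matplotlib 3.10.9 was used for the rest.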

Additional observations from a re-analysis of the deposited data

How the results depend on the processing

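None of the 10 genes and none of the 55 other pathway genes was called under any of the 19 alternatives, the lowest adjusted p of a member being 0.188 (Entpd2 without EA 3). Of 190 member values, 186 kept their direction and their side of the threshold. The 4 that turned were log2 fold changes near 0, Adora2b at 0.022 without EA 2 and EA 5, 0.057 without EA 2 and 0.064 without control 5, and Entpd1 at -0.088 without control 5. With 1 library left out Adora2b ranged from -0.083 to 0.064 and Entpd1 from -0.088 to 0.11. Over all 19 alternatives P2rx4 ranged from -0.24 to -0.17 (adjusted p 0.199 to 0.633), and its unadjusted p from 0.0156 (limma) to 0.126 (without EA 2 and EA 5). Over all genes tested edgeR called 3 higher and 0 lower in EA, DESeq2 77 higher and 91 lower, limma with a pseudocount of 0.1 called 1 higher and 1 lower, limma with a pseudocount of 1 called 3 higher and 1 lower, robust edgeR 5 higher and 3 lower, and edgeR without EA 2 and EA 5 called 2 higher and 1 lower. With 1 library left out, 2 to 6 genes were called higher and 0 to 3 lower, the most (6 and 3) without EA 3, while without control 2 there were 5 higher, without EA 1 there was 1 lower, and without control 1 there were 2 lower. Why the tools differ was not tested. Each member has 1 row, so summing rows per symbol gave no other value.

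With the replicate number as a block edgeR again called 3 genes higher and 0 lower, and 0 members. P2rx4 was then at -0.20 (unadjusted p = 0.0690, adjusted p = 0.397) and P2rx7 at -0.27 (unadjusted p = 0.0179, adjusted p = 0.276). Without the block the unadjusted edgeR p was 0.0341 for P2rx4 and 0.0985 for P2rx7. Libraries with the same number deviated together with correlations of 0.000599 to 0.0783. With 0 of 5 above a threshold of 0.1, the main test did not pair them. Even so, 3 of 5 correlated best with their own number, and whether the numbers mark pairs is not stated. P2ry1 rested on 61 to 159 counts and Nt5e on 103 to 457, and whether depth or the spread between libraries sets their wide intervals was not tested.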
